A study of Mus musculus with 2 samples.

Results

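The cells described here are fibroblasts of the early postnatal mouse heart that carry Col26a1, Dpep1, Tenm4 and Slc38a5 transcripts. They were selected by these genes themselves. Barcodes with 200 to 8000 detected genes and at most 20% mitochondrial UMIs (unique molecular identifiers, which count each captured mRNA molecule once) were kept. Among them, cells with at least 10 UMIs of Col1a1 and Col3a1 together and no UMI of Pecam1 or Ptprc formed a collagen-gated population. Within this population a cell was a member when at least 2 of those 4 genes were detected, and more of them than of Pi16, Clec3b, Mfap5 and Sema3c, of Gdf10, Wisp1, Rbp4 and Gfra2, or of Fmod, Prss35, Wif1 and Scx. The rule found 948 members among 4864 collagen-gated cells, 13502 cells kept and 16913 barcodes, with 635 members in the P1 library and 313 in the P7 library.

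Live cells, sorted by exclusion of a viability dye, were profiled by droplet single cell RNA-seq from P1 and P7 mouse hearts, to compare the neonatal heart at these ages. Each library was made from 3 hearts of one litter, minced together. Digestion in collagenase II lasted 20 min for P1 and 45 min for P7. No genotype, treatment or strain is given in the labels for either group. With 1 library per age there was no replicate, so no difference between the ages could be tested, and all intervals below are exact 95% intervals that cover counting error only. Age, litter, digestion time and library cannot be told apart. The libraries also differed in sex-linked transcripts, since P1 members held 9377 UMIs of Xist and none of Ddx3y, and P7 members held 1 UMI of Xist and 416 of Ddx3y, so that sex cannot be told apart from age either. The libraries shared 18 barcode sequences, of which 1 belonged to a member in both.

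Cardiac fibroblasts build and maintain the collagen network between cardiomyocytes, and most of those in the ventricular wall descend from the embryonic epicardium. Tcf21 is a transcription factor required for that lineage and stays on in resident fibroblasts. In the days after birth the mouse heart passes from a proliferating to a maturing state, and its fibroblasts shift from growth towards matrix deposition. Of the genes in the rule, Col26a1 encodes a short collagen-like matrix protein, Dpep1 a membrane dipeptidase, Tenm4 a teneurin involved in cell contacts and Slc38a5 a transporter of glutamine and other neutral amino acids. Dlk1, listed with them as a marker but not used to select the cells, is an imprinted membrane protein of the Notch ligand family that is abundant in fetal mesenchyme.

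Members were deeply covered and alike in depth at both ages. Their median was 14585 UMIs and 4067 genes per cell at P1 and 14936 UMIs and 4114 genes at P7, with a lowest of 640 and 1599 UMIs and a highest of 46920 and 32183. The median mitochondrial share was 2.65% at P1 and 2.68% at P7. The other collagen-gated cells had medians of 13738 UMIs (1223 cells) and 15941 UMIs (2693 cells). Summed over members, 10088018 UMIs were available at P1 and 4720551 at P7, and levels are given as CPM, the UMIs of a gene scaled to these sums. Where a pair of values is given without ages, P1 comes before P7.

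The members carried general fibroblast markers. Tcf21 was found in 97.2% of P1 members at 923 CPM and in 99% of P7 members at 1059 CPM (93.6% and 93.4% after thinning each cell to 5000 UMIs), against 65.2% and 90.2% of the other collagen-gated cells and 6.0% and 10.4% of leukocytes, which give the level of free RNA at a lower median depth (6746 and 6190 UMIs). Dcn, which encodes the collagen-binding proteoglycan decorin, was at 6228 and 9826 CPM. It was found in nearly every member, but also in 29.4% and 52.2% of leukocytes, so that its detection alone does not mark a fibroblast. In collagen-gated cells led by Pi16 and its group, Tcf21 was found in 80.3% and 96.8% of cells and Dcn was at 7436 and 13038.5 CPM. Of 11 fibroblast genes outside the rule, 6 were higher in members than in the other collagen-gated cells at P1 and 3 at P7. Lower were 5 and 8, with list medians of 0.01 and −0.25. Lpl, the secreted lipase that hydrolyses triglycerides of lipoproteins, stood at 1205 CPM (1183 to 1226) at P1 and 877 CPM at P7. Lpl does not mark fibroblasts alone, since it was found in 70.5% and 69.1% of endothelial cells, at 422 and 334 CPM. The position of these cells in the myocardium was not measured, so the name rests on genes alone.

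Markers of other cell types were found in the members to differing degrees. Of 9 leukocyte markers, 2 were at 0 in P1 members and 1 at P7, with Ptprc at 0 through the gate, and their summed level was 15.5 and 19.1 CPM, mostly Lyz2. Of 8 endothelial markers only Pecam1, through the gate, was at 0, and the sum was 40.4 and 49.6 CPM, led by Egfl7. The 9 mural markers summed to 644 CPM at P1 and 637 CPM at P7, led by Acta2, against 2777 and 1460 CPM in the other collagen-gated cells. The 8 epicardial markers summed to 27.9 and 4.24 CPM, mostly Wt1, with Muc16 at 0 at both ages and 6 of them at 0 at P7. Wt1 itself, a transcription factor of the epicardium, was at 24.5 and 3.81 CPM. Of 7 Schwann cell markers, Sox10, Kcna1 and Foxd3 were among those at 0 at both ages, and most of the 77.6 and 80.9 CPM was Cryab. The 9 cardiomyocyte markers summed to 313 CPM at P1, led by Tnnt2, and 168 CPM at P7, led by Myl3, against 306 and 127 CPM in the other collagen-gated cells. At least 2 of them were detected in 47.1% and 33.5% of members and in 34.7% and 28.0% of those cells. The list of 11 genes of lung stroma or epithelium holds Tcf21, which cardiac fibroblasts share. The other 10 summed to 55.1 CPM at P1, led by Ager, and 6.99 CPM at P7, led by Hsd11b1, against 49.8 and 6.27 CPM in the other collagen-gated cells, and 6 of them were at 0 at P7. Of the 5 genes of the list that were measured, 4 were at least 2-fold higher at P1, against 3.20% of all measured genes. A UMI of any of 7 such genes (Hoxa5, Tbx4, Foxf1, Wnt2, Inmt, Sftpc or Ager) was found in 16.5% of P1 members and 2.24% of P7 members. The shares were higher in the other collagen-gated cells, 23.4% and 4.90%. The part of these transcripts in the differences between the ages was not tested, except where values without the cells that hold them are given.

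Members were a larger part of the collagen-gated population, which also held mural and epicardial transcripts, at P1 than at P7. They made up 34.2% (32.0 to 36.4) of the 1858 collagen-gated cells at P1 and 10.4% (9.34 to 11.6) of 3006 at P7, or 12.7% and 3.68% of all cells kept. When each collagen-gated cell was first thinned to 5000 UMIs, leaving out shallower cells, the shares were 25.2% of 1661 cells and 7.68% of 2840. Over 20 repeats of this draw they averaged 25.1% (24.1 to 26.9) and 7.08% (6.27 to 7.57), so that the P7 share of the first draw lay above all the repeats. In the same gate, cells led by Pi16 and its group went the other way, from 14.5% (269 cells) to 61.0% (1835 cells). The Gdf10-led cells numbered 76 and 79, the Fmod-led cells 298 and 113, and 580 and 666 cells had no leading score.

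The difference was smaller when the competing scores were ignored. Cells with at least 2 of the 4 genes were then 53.1% (987 cells) of the gated population at P1 and 40.9% (1228 cells) at P7. Of these, 205 at P1 and 249 at P7 tied with another score, and 147 and 666 fell below another. Col26a1 itself was seen in 39.8% of the Pi16-led cells at P1 and 55.3% at P7.

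**Figure D1:**
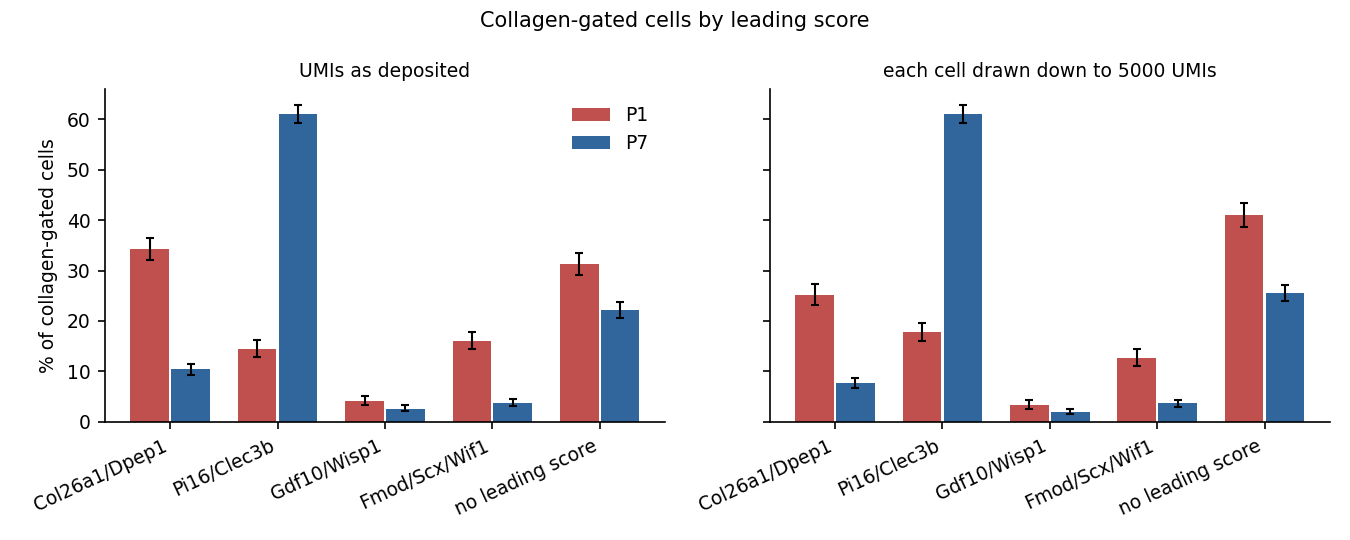
Share of collagen-gated cells (percent, y axis) in each class defined by its leading gene score, at P1 and P7, with UMIs as deposited (left) and with each cell drawn down to 5000 UMIs (right). Bars carry exact 95% binomial intervals that cover counting error only. On the left the Col26a1/Dpep1 cells stand at 34.2% at P1 and 10.4% at P7, and the Pi16-led cells at 14.5% and 61.0%.

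Within the members, all 4 genes were detected together in 36.9% of cells at P1 and 24.3% at P7. The next most frequent set was Col26a1, Dpep1 and Slc38a5, with 21.4% and 19.5%. Members with 2, 3 and 4 of the genes numbered 141, 260 and 234 at P1 and 85, 152 and 76 at P7, and their median depth increased with the number detected, from 10981 to 17460 UMIs at P1 and from 11929 to 17614 at P7. Members at the threshold differed in level from those with all 4 genes. At P1 the 141 cells with 2 genes had 2256 CPM of Eln (elastin) and 831 CPM of Acta2 (smooth muscle actin), against 400 and 150 CPM in those with all 4. Just outside the rule, the 27 P1 cells and 14 P7 cells with 1 of the 4 genes and none of the other 12 had median depths of 2625 and 4352 UMIs. Transcripts of the competing groups also occurred in members below the threshold. Mfap5, for a microfibril protein, was found in 66.6% of P1 members and 79.9% of P7 members. It was also found in 32.2% and 30.5% of endothelial cells and in 4.57% and 19.1% of leukocytes.

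Of the genes in the rule, Col26a1 stood at the same level at both ages within counting error. It lies at chr5:136741759-136883209 (GRCm38) and gave 193 CPM (185 to 202) at P1 and 190 CPM at P7, a log2 ratio of P1 over P7 of 0.02 (−0.09 to 0.14). Tenm4 (chr7:96171246-96911093) was at 82.3 CPM at P1 and 93.4 CPM at P7. Dpep1 (chr8:123186242-123201812) was at 289 and 176 CPM, and Slc38a5 (chrX:8271133-8280179) at 144 and 99.8 CPM. The log2 ratios were −0.18, 0.71 and 0.53. Because these 4 genes selected the cells, their levels describe the selection at each age.

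Dlk1 (chr12:109452823-109463336) had the largest ratio between the ages among the listed markers. Its level was 1445 CPM (1422 to 1469) in P1 members and 235 CPM in P7 members, a log2 ratio of 2.62 (2.53 to 2.71). It was detected in 83.5% of P1 members and 42.2% of P7 members, or 71.7% and 28.5% after thinning to 5000 UMIs. In leukocytes, taken as background, the shares were 4.29% and 1.04%, and in endothelial cells 10.0% and 0.741%, at median depths of 6746 and 6190 UMIs and of 10937 and 8002 UMIs. The lower P7 level was also less evenly spread, since the highest 5% of cells held 61.8% of Dlk1 UMIs at P7 and 30.8% at P1 after thinning. The other classes with a leading score also had more Dlk1 at P1, with log2 ratios of 4.36 in the Pi16-led, 1.06 in the Gdf10-led and 4.81 in the Fmod-led cells. Members held more Dlk1 than the pool of other collagen-gated cells at both ages, by 1.04 (log2) at P1 and 1.86 at P7. Each class in that pool was below members, but by differing amounts. The nearest were the Pi16-led cells at P1 (1020 CPM) and the Gdf10-led cells at P7 (180 CPM). The Fmod-led cells were lowest, at 117 and 3.91 CPM. Cells with at least 2 of the 4 genes that tied with another score had 1405 and 161 CPM, near the member level at P1.

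**Figure D2:**
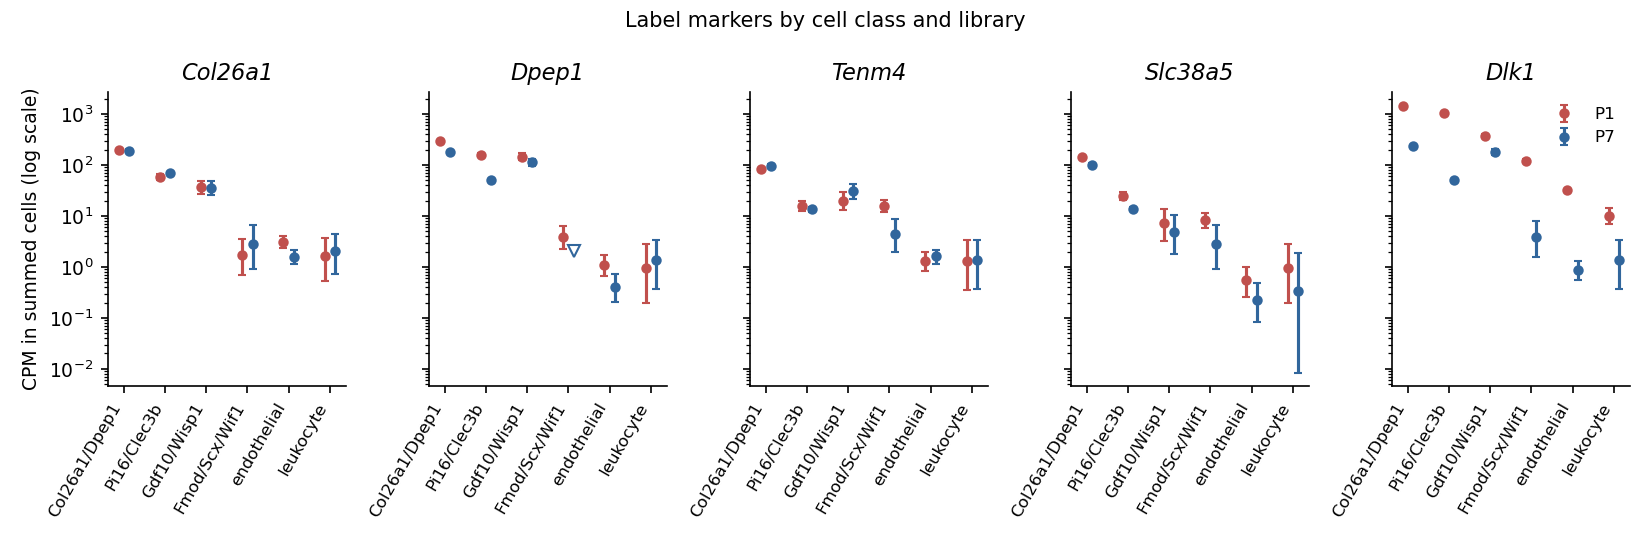
Level (CPM, log axis) of the 5 markers in each cell class at P1 and P7, with exact 95% Poisson intervals for counting error and an open triangle where no UMI was found. Dlk1 stands at 1445 CPM in P1 members and 235 CPM in P7 members, while Col26a1 stands at 193 and 190 CPM.

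Beyond the genes that selected them, members differed from the other collagen-gated cells in genes in both directions. Of 11803 genes with at least 50 UMIs over all collagen-gated cells of each library, 32 were at least 2-fold higher in members in both libraries, 0.271% of all, and 393 were at least 2-fold lower in both, 3.33% of all. The filter summed UMIs over members and the other cells, which held 17314820 UMIs at P1 and 43064883 at P7. A gene found almost only in the other cells passed it and could only count as lower. The counts in the 2 directions are thus not a measure of balance. Because the cells were chosen by related transcripts, these values describe the members and were not tested.

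Receptors, enzymes, matrix and secreted proteins and a transcription factor were among the genes highest in members. Prlr, the prolactin receptor, was at 32.2 CPM in P1 members and 57.4 CPM in P7 members, against 9.93 and 10.0 CPM in the other collagen-gated cells. It was found in 25% and 33.2% of members (14.4% and 17.0% after thinning) and in 0.286% and 0.522% of leukocytes. Aldh1a2, the retinaldehyde dehydrogenase that makes retinoic acid, was at 313 and 505 CPM, higher by 1.31 and 1.13 on the log2 scale. Pi16-led cells had 222 and 249 CPM of Aldh1a2. S1pr3, a receptor for sphingosine 1-phosphate, was higher by 1.27 and 1.09, but at P7 it was level with the cells without a leading score (48.7 and 48.6 CPM). Adm, which encodes the vasodilator peptide adrenomedullin, was higher by 1.13 and 1.54, and was also found in 9.47% and 21.9% of endothelial cells, at 15.8 and 57.5 CPM. Its level was 54.0 and 101 CPM in members, against 43.7 and 32.3 CPM in Pi16-led cells. Ggt5, a gamma-glutamyl transferase that acts on leukotriene C4 and glutathione, was higher by 1.5 and 1.18. Frem1, an extracellular matrix protein of basement membranes, was higher by 1.32 and 2.22, and Lgals3bp, a secreted galectin-binding glycoprotein, by 1.46 and 1.11. Both were also found outside fibroblasts, Ggt5 in 38.1% and 20.2% of endothelial cells (55.4 and 30.9 CPM, against 60.7 and 30.5 CPM in members) and Lgals3bp in 26.9% and 12.8% of leukocytes (72.6 and 26.7 CPM) and at 70 and 47.9 CPM in endothelial cells, against 77.8 and 37.7 CPM in members. Ly6h, a Ly6 family surface protein, was higher by 2.06 and 1.62, and Onecut2, a transcription factor, by 1.93 and 1.15. Ly6h stood at 17.8 and 36.4 CPM in members. It was at 12.1 and 6.91 CPM in endothelial cells and at 3.94 and 28.9 CPM in Gdf10-led cells. Each of these genes was higher in members in both libraries by the way it was chosen.

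Mural, epicardial and elastic fibre genes were among those lower in members. By any amount, 3632 of all 11803 genes (30.8%) were lower in both libraries. Of 9 mural genes measured, 6 were at least 2-fold lower in members in both libraries, among them Acta2, Tagln, Myh11 and Rgs5. Of 7 epicardial genes, 6 were lower to the same extent, including Upk3b, Msln and Krt19. This count was largely set by the filter and is not a test. Of the 8 epicardial markers, only Wt1 had enough UMIs in members alone to be measured, and 6 were at 0 in P7 members. Such genes passed the filter through the other cells and could only count as lower. Summed, the 8 markers stood at 27.9 and 4.24 CPM in members, against 305 and 48.6 CPM in the other collagen-gated cells. In the elastic fibre list 11 of 16 genes were lower at both ages, and Eln, Efemp1, Ltbp2 and Emilin2 by at least 2-fold. Eln was lower by a log2 value of 1.90 at P1 (−1.90) and 1.44 at P7 (−1.44). Of 11 complement genes measured, 7 were lower in both libraries and 1 higher in both, with C3, C4b, C2 and C1s1 among those at least 2-fold lower. Outside that list Cfi, complement factor I, was higher in members by 1.62 and 1.63. Of 21 genes of the TGF-beta and BMP list, 15 were lower in both libraries, but only Fst and Tgfbi by 2-fold. Of 20 genes of the Wnt list, 13 were lower and 5 higher in both libraries. Wnt16, Rspo1, Lef1, Rspo3 and Wnt11 were at least 2-fold lower. Only 8 complement genes, 17 TGF-beta and BMP genes and 13 Wnt genes of these lists had enough UMIs in members alone to be measured. The remaining genes passed the filter mostly through the other cells and were prone to count as lower. The complement, TGF-beta and BMP, and Wnt counts were thus partly set by the filter and are not a test.

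**Figure D3:**
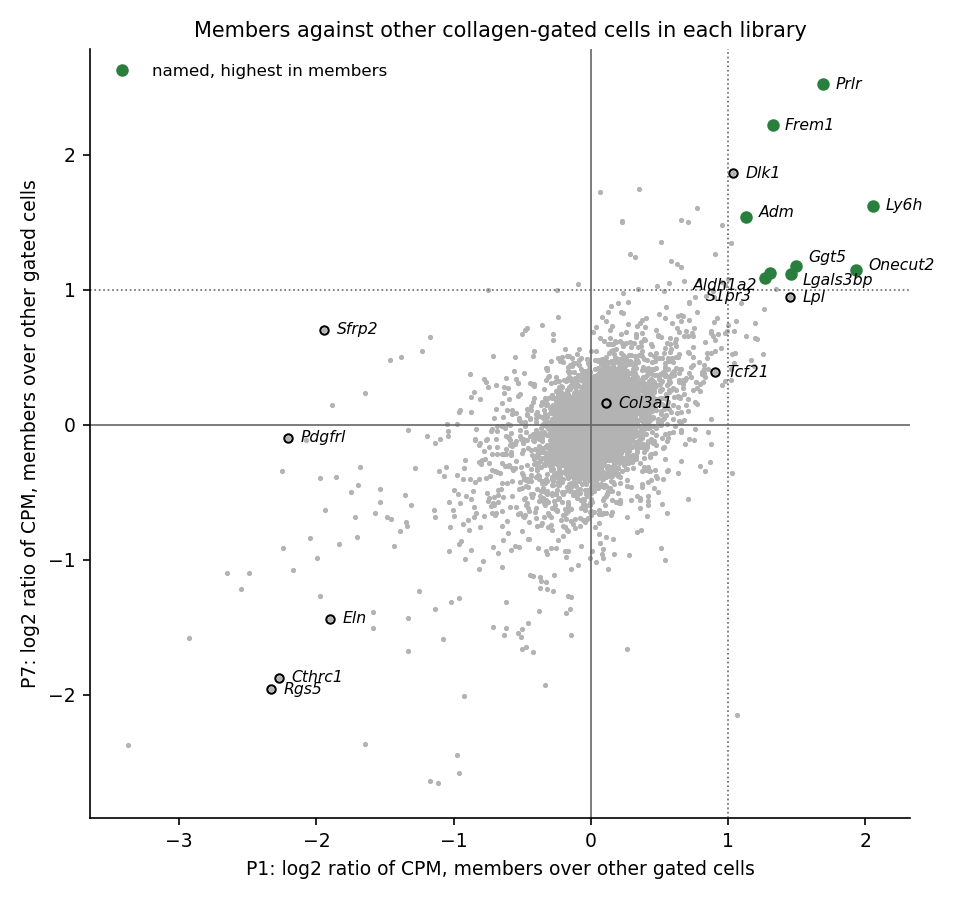
Log2 ratio of members over the other collagen-gated cells at P1 (x axis) and P7 (y axis), for genes outside the rule with at least 100 UMIs in members of each library (grey), with the genes named as highest in members in green and dotted lines at 2-fold. Genes right of and above 0 are higher in members in both libraries, with Prlr at 1.70 and 2.52, and Eln lies on the lower side at −1.90 and −1.44.

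Between the ages, 10703 genes had at least 50 UMIs in members of both libraries together. Of these, 343 were at least 2-fold higher at P1 (3.20%) and 186 at least 2-fold higher at P7 (1.74%), and the median log2 ratio over all of them was 0.03. By any amount, 5793 genes (54.1%) were higher at P1 and 4910 (45.9%) at P7, and the counts of list members below are to be read against these shares. Ratios carry 0.5 added counts and are given as P1 over P7. Genes that selected the members are left out of the named genes below unless stated. Values of the other collagen-gated cells beside those of members come from a mixture of classes that differed between the ages. Pi16-led cells were 14.5% of all collagen-gated cells at P1 and 61.0% at P7. The part of this mixture in the contrasts between members and the other cells was not tested.

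Several of the largest differences towards P1 were for genes with no UMI at P7. Mrap2, an accessory protein of melanocortin receptors, had 186 UMIs in P1 members (18.4 CPM) and 0 at P7, and was at least 29.0-fold higher at P1 against a floor of 3 UMIs over the P7 members. Tsix, the antisense partner of Xist, was at least 31.0-fold higher and follows the sex-linked difference given above. Apoc1, an apolipoprotein, was at least 16.1-fold higher. Npnt (nephronectin) and Inmt, an indolethylamine methyltransferase, were at least 20.6-fold and 15.8-fold higher, but were found in 2.36% and 1.10% of P1 members (0.857% and 0% of leukocytes). Of the 132 UMIs of Npnt, 126 came from 23 P1 members that carried a UMI of Hoxa5, Tbx4, Foxf1, Wnt2 or Inmt, genes of lung stroma. The 101 UMIs of Inmt, which was itself used to find these cells, came from 7 of them. These 23 cells were 3.62% of P1 members, and 2 such cells were found at P7. They also held 26.9% of all Eln UMIs of P1 members but 1.29% of the Dlk1 UMIs.

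The remaining genes with large ratios towards P1 differed in how many cells carried them. Maf, a bZIP transcription factor, was at 27.8 CPM in P1 members and 0.847 CPM in P7 members, a log2 ratio of 4.87 (3.66 to 6.92), against 1.15 in the other collagen-gated cells. Tmem108, a transmembrane protein, was at 24.5 and 1.27 CPM, a ratio of 4.16 against 1.17 in the others. Zbtb16, a zinc finger factor induced by glucocorticoids, was at 14.8 CPM at P1 and had 3 UMIs at P7, a ratio of 4.32 (2.96 to 6.83). The other collagen-gated cells had much the same ratio for Zbtb16, 4.50. Ccl2, a chemokine that attracts monocytes, was at 173 and 3.6 CPM, a ratio of 5.54. Its 1743 P1 UMIs came from 102 cells, of which 1 held 373. Ccl7, a related chemokine, stood at 22.2 and 2.54 CPM, but 19 P1 members carried it and 1 of them held 70 of 224 UMIs. In leukocytes, which are known to make both chemokines, Ccl7 was found in 7.43% of cells at P1. Myl7 and Nppa, genes of atrial cardiomyocytes, also reached ratios of 5.39 (3.47 to 11.28) and 4.52 (2.95 to 7.90), with 120 of 134 and 97 of 122 UMIs in single P1 cells and 1 and 2 UMIs at P7.

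Towards P7, with the sex-linked genes left out, the gene with the largest ratio was Gm10320, a predicted gene, at 0.496 and 133 CPM, and the other collagen-gated cells differed as much (−7.93 against −8.03). Fap, the membrane protease fibroblast activation protein, was at 19 CPM in P1 members and 91.5 CPM in P7 members, with a log2 ratio of −2.26 (−2.52 to −2.02). It was found in 20.9% and 61.7% of members (9.21% and 30.5% after thinning) and in 0.286% and 2.87% of leukocytes. Pdgfrl, a secreted protein related to PDGF receptors, was at 28.7 and 117 CPM, and Sfrp2, a secreted Wnt modulator, at 125 and 419 CPM. The remaining genes of this group had ratios between −2.17 and −1.69. Gfra1, a receptor for GDNF, stood at 5.95 and 26.9 CPM, the trypsin-like protease Prss23 at 7.24 and 29.0 CPM, and the protocadherin Pcdh19 at 7.43 and 28.0 CPM. Fgl2, a fibrinogen-like protein, stood at 17.8 and 64.2 CPM, and Msc (musculin, a bHLH repressor) at 26.2 and 84.7 CPM. Pianp, Gas2 and Galnt16 completed it. The P7 UMIs of these 12 genes were spread over 23.3% to 80.2% of members, and the highest cell held at most 7.79% of a gene's UMIs.

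**Figure D4:**
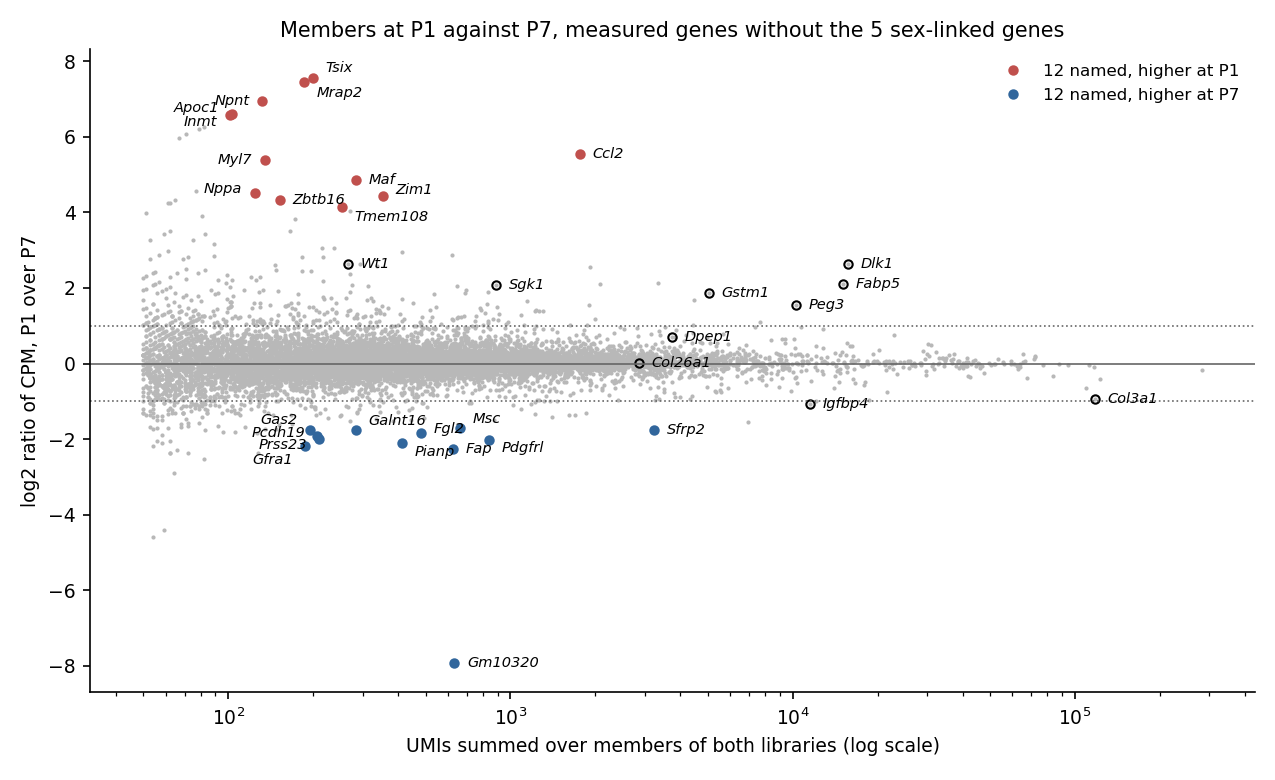
Log2 ratio of CPM in Col26a1/Dpep1 cells, P1 over P7 (y axis), against the UMIs summed over members (x axis, log scale) for each measured gene other than 5 sex-linked ones, with the 12 named genes in each direction coloured and dotted lines at 2-fold. Dlk1, Ccl2 and Fabp5 lie above 0 at 2.62, 5.54 and 2.11, and Fap, Sfrp2 and Pdgfrl below it at −2.26, −1.75 and −2.02.

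Imprinted genes, many of which control fetal growth, were on the whole higher at P1. Of 24 measured, 21 were higher at P1 (54.1% of all genes were), 7 of them at least 2-fold, and none was 2-fold higher at P7, with a median of 0.40 against 0.03 over all genes and 0.24 for the same list in the other collagen-gated cells. Peg3, a zinc finger repressor, was at 877 CPM at P1 and 300 CPM at P7, a ratio of 1.55 (1.47 to 1.63). Zim1, its neighbour in the same imprinted cluster, was at 34.2 and 1.48 CPM, a ratio of 4.43 against 1.94 in the others. Igf2, the fetal growth factor, was at 33.8 and 13.6 CPM, a ratio of 1.31. Cdkn1c, a cyclin-dependent kinase inhibitor, was at 623 and 288 CPM, and the non-coding H19 at 859 and 441 CPM.

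Genes around insulin-like growth factor were divided. Stc2, a stanniocalcin that inhibits the protease Pappa, was at 58.1 and 7.84 CPM, and Pappa itself, which cleaves IGF-binding proteins, at 9.12 and 2.54 CPM. Igfbp4, its best known substrate, was at 575 and 1212 CPM, a ratio of −1.08 (−1.13 to −1.02). Of 13 genes of the list, 3 were at least 2-fold higher at P1 and 1 at P7, with a median of 0.38. The gene at P7 was Igfbp4, which fell below 2-fold under thinning, with the mean of per-cell CPM and without the cells with the most genes. The RNA-binding proteins Igf2bp1 and Igf2bp3 and the chromatin factor Hmga2, all typical of fetal tissue, had ratios of 1.51, 1.24 and 1.72. Among 43 cardiac and mesenchymal transcription factors and regulators the median was 0.02, with 4 at least 2-fold higher at P1.

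Genes of fatty acid handling were mostly higher at P1, and those of the respiratory chain were level. Fabp5, a fatty acid binding protein, was at 1353 CPM in P1 members and 313 CPM in P7 members, a ratio of 2.11 (2.03 to 2.19). Ucp2, a mitochondrial carrier, was at 104 and 38.6 CPM, and Acaa2, a thiolase of mitochondrial beta-oxidation, at 357 and 177 CPM. In this list 22 of 26 genes were higher at P1, against 54.1% of all genes. The median was 0.35, against 0.16 in the other collagen-gated cells. At least 2-fold higher at P1 were 3 genes. Of these 3, Acaa2 fell below 2-fold with scaling by the median ratio and Ucp2 under thinning. The 44 nuclear genes of the respiratory chain had a median of 0.04 and ratios from −0.33 to 0.21. Glycolytic genes had a median of 0.23 over 18 genes. The lactate exporter Slc16a3 was the highest of them, at 28.4 and 10.4 CPM. Among 32 core HIF targets the median was 0.18 in members and −0.16 in the other collagen-gated cells, with 25 higher at P1 and 7 at P7, and 3 genes at least 2-fold higher at P1 and 1 at P7. Egln3, a prolyl hydroxylase that is itself a HIF target, was at 22 and 8.90 CPM. Adm was on the P7 side, at 54.0 and 101 CPM.

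Genes of a list of glucocorticoid-responsive genes and metallothioneins were also mostly higher at P1. Of 16 measured, 15 were higher at P1, against 54.1% of all genes, and 4 at least 2-fold. The median was 0.66, against 0.33 in the other collagen-gated cells. Sgk1, a kinase induced by glucocorticoids, was at 79.5 and 18.9 CPM, a ratio of 2.07 (1.76 to 2.41). Fkbp5, a co-chaperone of the glucocorticoid receptor, was at 27.9 and 8.26 CPM, but fell below 2-fold under thinning. Hp (haptoglobin), at least 12.3-fold higher at P1, had no UMI at P7 and 79 at P1, of which 65 came from the 23 cells with lung-type transcripts. Cebpd, a transcription factor, was the gene of the list that was higher at P7, at 223 and 313 CPM. Genes known to respond to enzymatic digestion went both ways, with 24 of 37 higher at P1 and 13 at P7, ratios from −0.75 to 1.31 and a median of 0.04. Of these, 2 were at least 2-fold higher at P1, and Maff, a bZIP factor, was the highest, at 23.9 and 9.53 CPM. Maff fell below 2-fold under thinning and without members with at least 3 G2 and M phase UMIs. The digestion times differed, and their part in the comparison was not tested.

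Matrix genes were mostly level or somewhat higher at P7. The list counts here leave out the genes of the rule and the gate. Col3a1, which was part of the gate, was at 6164 CPM in P1 members and 11813 CPM in P7 members, and Col1a1, also in the gate, at 5208 and 6588 CPM. The 5 other fibrillar collagens measured had a median of −0.07, with 2 higher at P1 and 3 at P7 and none by 2-fold. Among small leucine-rich proteoglycans 6 of 7 were higher at P7, with lumican (Lum) at 1199 and 2023 CPM and Dcn at a log2 ratio of −0.66 (−0.68 to −0.64). Their median was −0.49, against −0.81 in the other collagen-gated cells. Of 16 elastic fibre genes 11 were higher at P7, against 45.9% of all genes. Mfap4, a microfibril-associated glycoprotein, was at 622 and 1243 CPM, a ratio of −1.0 (−1.05 to −0.95). Of its P1 UMIs, 23.3% came from the 23 cells with lung-type transcripts. Eln was at 774 and 495 CPM over all members, but the difference was largest in cells near the threshold of the rule, with 2256 and 821 CPM in members with 2 of the 4 genes, 580 and 417 CPM in those with 3 and 400 and 394 CPM in those with all 4. The list had a median of −0.34 in members and 0.32 in the other collagen-gated cells. Efemp1, an elastic fibre glycoprotein, had 79 P1 UMIs and 2 P7 UMIs, a ratio of 3.90 (2.31 to 7.28). Of 17 matricellular genes 14 were higher at P7, against the same share of all genes, and the adhesion modulator Tnc was at 36.9 and 73.7 CPM. Has2, which synthesises hyaluronan, was at 14.0 and 6.14 CPM, on the P1 side. Basement membrane genes had a median of −0.20, against −0.63 in the other collagen-gated cells, with 10 of 12 higher at P7 in members and Col4a5 at 9.71 and 24.1 CPM. Col13a1, a transmembrane collagen, was at 24.6 and 5.72 CPM, but 47.2% of its P1 UMIs came from the 23 cells with lung-type transcripts.

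Signalling genes were divided. Bmp4, a bone morphogenetic protein, was at 37.5 and 105 CPM and was found in 32.0% and 64.5% of members (15.9% and 34.1% after thinning) and in 0.857% and 0.522% of leukocytes. Inhba, the activin A subunit, was at 21.7 and 58.5 CPM. Their log2 ratios were −1.49 (−1.69 to −1.29) and −1.43 (−1.69 to −1.17), within a list of 17 genes whose median was −0.08. Vegfd, a lymphatic growth factor, was at 11.3 and 29.0 CPM, and the 20 genes of PDGF, FGF, HGF and VEGF signalling had a median of −0.39 against 0.14 in the other collagen-gated cells. In the same list Vegfa, the angiogenic growth factor, was the highest towards P1, at 45.6 and 28.6 CPM. The chemokine Cxcl12 was at 30 and 48.7 CPM, within a list of 14 whose median was 0.09 with 8 genes higher at P1 and 6 at P7. Of these, 3 were at least 2-fold higher at P1, Ccl2 and Ccl7 among them, and 1 at P7, the scavenging receptor Ackr3 (2.78 and 6.99 CPM). Wnt4 was higher at P1, at 38.9 and 18.0 CPM. Of the Notch list, Heyl, a Notch target, was at 36.1 and 74.1 CPM. Complement genes had a median of −0.83 over 8 genes against 0.10 in the others, with the C1 inhibitor Serping1 at 204 and 378 CPM. Aldh1a2 was higher at P7 by 0.69 (log2 ratio −0.69), within a retinoid list of which 7 of 10 genes outside the rule were on that side. Of 16 myofibroblast genes, Fap and Cthrc1 were at least 2-fold higher at P7, Cthrc1 by so little (−1.02, −1.18 to −0.85) that it fell below 2-fold under thinning, with the mean of per-cell CPM, and without lung-type cells or the cells with the most genes, while Acta2 was at 276 and 283 CPM.

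Interferon and MHC related genes had a median of 0.42 over 16 genes, against 0.16 in the other collagen-gated cells. Of the 16, 12 were higher at P1 and 4 at P7. At least 2-fold higher were 3 at P1 and 1 at P7, Psmb8 (−1.13). Bst2, an antiviral membrane protein, was at 35.7 and 10.8 CPM. Gstm1, a glutathione transferase, was at 444 and 121 CPM, the largest ratio (1.88) among 13 dipeptidase and glutathione genes outside the rule, whose median was 0.18. Of 14 solute carriers outside the rule 3 were at least 2-fold higher at P1, with Slc38a1, a glutamine transporter related to Slc38a5, at 17.0 and 5.93 CPM. The 5 teneurins and partners measured outside the rule had a median of 0.03 and no 2-fold difference.

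**Figure D5:**
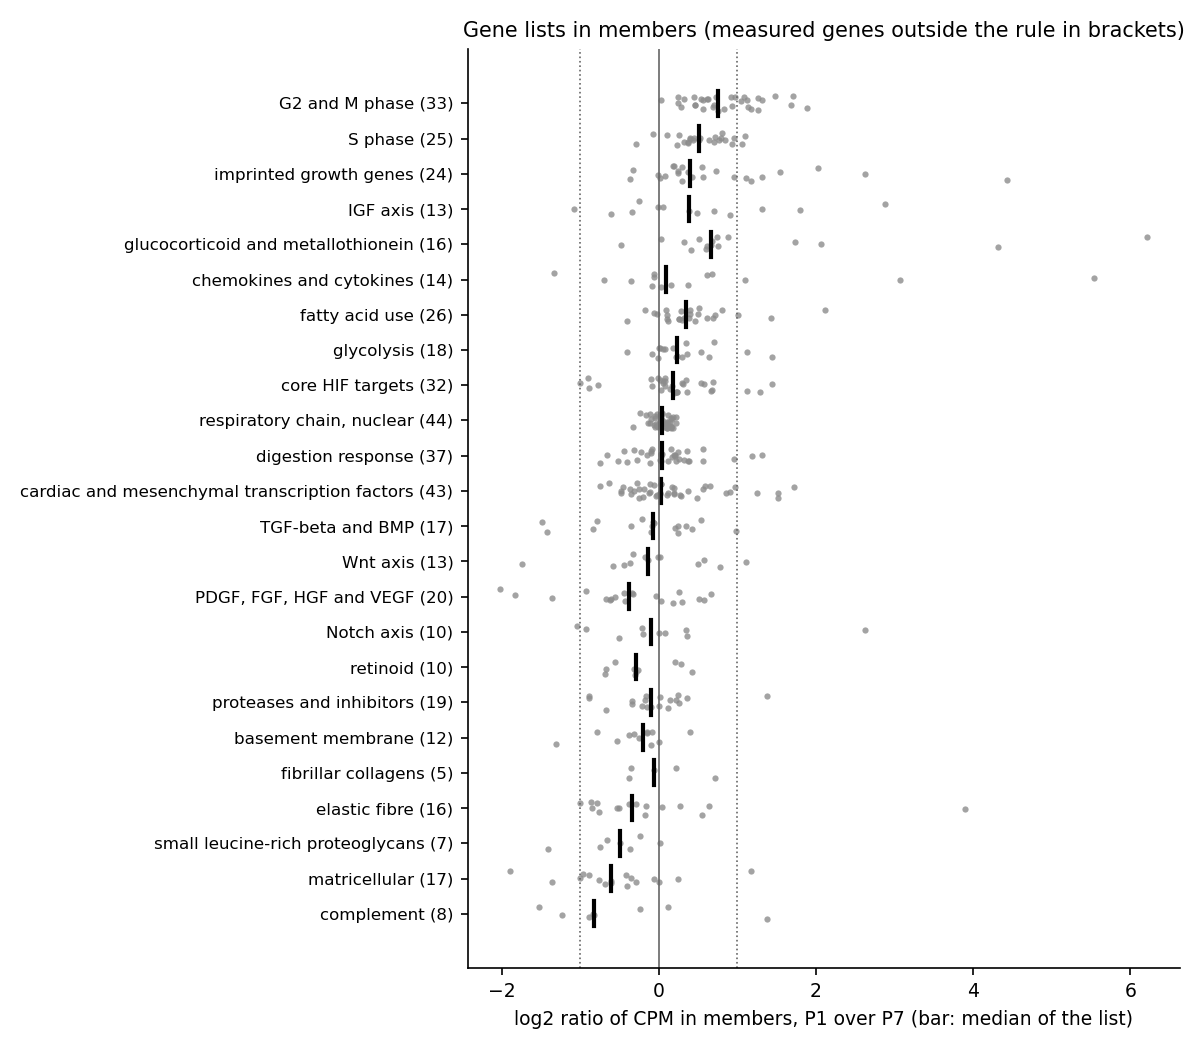
Log2 ratio of P1 over P7 in Col26a1/Dpep1 cells for each measured gene of the gene lists outside the rule and the gate (points, number in brackets), with the median of each list as a bar and dotted lines at 2-fold. The imprinted, fatty acid, glucocorticoid and cell cycle lists lie above 0 (medians 0.40, 0.35, 0.66 and 0.75 for G2 and M phase), and complement and small leucine-rich proteoglycans below it (−0.83 and −0.49).

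Cell cycle genes were higher at P1 in summed UMIs. All 33 genes of the G2 and M phase list were on that side, 12 of them at least 2-fold, with a median of 0.75 against 0.14 in the other collagen-gated cells, and the S phase list had a median of 0.51. These medians depended on which cells were counted and how. When cells were thinned to 5000 UMIs before the rule was applied, which also left fewer members (418 and 218), the medians were −0.00 and 0.04, and with at least 3 of the 4 genes required the G2 and M phase median was 1.16. After thinning of the members alone, 44.4% (40.4 to 48.5) of 597 P1 members and 37.4% (31.9 to 43.1) of 305 P7 members had at least 3 UMIs over the G2 and M phase list, leaving out 38 and 8 shallower cells. Without thinning, where depth also sets the share, the shares were 81.3% and 85.3%, in the opposite order. No difference between the ages in these shares was tested. The thinned shares in the other collagen-gated cells were 36.1% of 1064 and 26.3% of 2535. Cells with at least 10 such UMIs were 11.4% and 5.90% of members. These UMIs include genes present outside division and were not read as a count of cycling cells.

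Haemoglobin, cell cycle and mural genes varied most among members. After thinning, the 10 genes with the largest variance beyond counting noise in both libraries, among 5772 ranked, were Hba-a1, Hbb-bs, Ube2c, Rgs5, Cdc20, Hist1h1b, Prc1, Acta2, Ctgf and Pttg1. The ubiquitin-conjugating enzyme Ube2c, active in mitosis, had 96.5% of its UMIs in the highest 5% of P1 cells and 100% at P7. Rgs5, a pericyte gene, had 100% and 80.2%, and Acta2 76.0% and 66.3%. The haemoglobin transcripts came from few cells, with 1797 of 1874 Hba-a1 UMIs of P1 members in a single cell, and without each library's highest cell the Hba-a1 ratio of 2.11 became −1.35.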

How the data were processed

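The authors aligned the reads to mm10 (GRCm38) with Cell Ranger 3.1.0, per the labels, and deposited 2 matrices of raw UMI counts, 1 per library. All values were computed from these counts in python 3.11.15 with numpy 2.4.6, scipy 1.17.1, pandas 2.3.3 and matplotlib 3.10.9. The members and gene lists were chosen with earlier results of these data known.

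Counts were summed over members and scaled to CPM. Log2 ratios carry 0.5 added counts, and genes with at least 50 summed UMIs were measured. Intervals are exact at 95% (Poisson for sums, conditional binomial for ratios, Clopper-Pearson for shares) and cover counting error only, since cells are not replicates. Shares of cells were compared after thinning each cell to 5000 UMIs. Leukocytes and endothelial cells (under 10 collagen UMIs and either a Ptprc UMI or at least 2 of Pecam1) gave the background of free RNA. No doublet caller was run, and an alternative left out the 6% of gated cells with the most genes. Ratios and intervals were checked on simulated sums with Poisson noise only, so the check does not cover variation between cells or libraries. Positions are from GENCODE M21, in which 30934 of 31053 identifiers were found.

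The genes named are the markers and genes of the rule, the 12 largest ratios in each direction (100 UMIs or more in the higher age, without the rule and sex genes), the 10 genes highest in members over other gated cells in both libraries, up to 4 genes of each list with the largest ratios among those with at least 100 summed UMIs, the 10 most variable genes, and genes that check sex and other cell types. A few genes these rules name are not reported here. Lpl, Cdkn1c, H19, Cebpd, Vegfa, Cfi, Ackr3, Efemp1, Hp and the genes given as lower in members than in other gated cells were named after their values were seen. Alternatives changed the mitochondrial limit, the rule, the gate, thinning, scaling, filters and added counts. Leaving out members with lung stroma transcripts or the highest cell, and ignoring competing scores, were added after seeing the data.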

Additional observations from a re-analysis of the deposited data

Results flagged for a closer look

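Among the genes picked by the naming rule, 4 were at least 2-fold different between the ages in members while the other collagen-gated cells differed in the opposite direction, with an interval that did not include 0. Genes outside that rule were not searched. None of these differences was tested, since there was 1 library per age. Pdgfrl had a log2 ratio of P1 over P7 of −2.02 in members and 0.09 in the other collagen-gated cells as a whole, but within the classes the ratio was −0.29 in Pi16-led, −0.71 in Gdf10-led and −0.53 in Fmod-led cells. Sfrp2 had −1.75 in members and 0.90 in the others, with 0.38 in Pi16-led, −0.85 in Gdf10-led and −0.97 in Fmod-led cells. The mixture of classes in the other collagen-gated cells differed between the ages, and its part in these contrasts was not tested. Pi16-led cells were 14.5% and 61.0% of all collagen-gated cells. Ccl7 had 3.07 in members and −1.35 in the others, with 70 of its 224 P1 UMIs in 1 cell. Sox11, a transcription factor of progenitor cells, had 1.51 and −0.46, from 88 UMIs in P1 members and 14 in P7 members.

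Cells outside the collagen gate that met the score rule numbered 100 of 3133 at P1 and 47 of 5505 at P7. Most of them had a Pecam1 UMI (80 and 42 cells). They entered no comparison.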

How the results depend on the processing

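Under both other mitochondrial limits, the collagen minimum of 30 UMIs, the removal of the cells with the most genes and the removal of cells with lung-type transcripts, the shares of members and the counts of 2-fold genes stayed near the values given, with 289 to 352 genes higher at P1 and 146 to 189 higher at P7. Requiring 3 of the 4 genes gave shares of 26.6% and 7.58%, thinning before the rule 25.2% and 7.68%, and ignoring the competing scores 53.1% and 40.9%. Thinning before the rule, which leaves both fewer UMIs and fewer members (418 and 218), gave 172 genes higher at P1 and 73 at P7. A minimum of 20 summed UMIs, which admits more genes, gave 539, 324 and, for genes higher in members than in the others, 55. Without members with at least 3 G2 and M phase UMIs, 118 genes were higher at P7. That filter removes cells by the G2 and M phase genes, so the median of −0.03 that it leaves for them says nothing of their stability. The share with cell cycle UMIs was 64.8% and 59.3% at a minimum of 2 UMIs, and 81.3% and 85.3% without thinning. Of 82 named genes past 2-fold between the ages, between 64 (thinning) and 82 remained so. Thinning ended the calls of Ly6h, Lgals3bp, Lgi2, Pcolce2, Wisp2, Has2, Igfbp4, Wnt4, Vegfd, Cthrc1, Uhrf1, Ube2c, Ccnb1, Bub1, Cdca3, Ucp2, Maff and Fkbp5. Among the other settings, those of Hsd11b1, Heyl, Acaa2, Igf2 and Ung were also lost under at least 1.

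Inmt with 3 of 4 genes (−1.18) or without cells with stromal lung-type transcripts (−1.06), and Inmt and Ager without cells with any lung-type transcript (−0.86 each), had 0 UMIs left at both ages, so that these values give only the ratio of the library sums and no direction. Thinning turned Uhrf1 (−0.10) and Bub1 (−0.20), and the removal of members with G2 and M phase UMIs, again by construction of the filter, turned Ube2c (−0.49), Ccnb1 (−0.78) and Bub1 (−0.78). Without each library's highest cell, Hba-a1 (−1.35), Hbb-bs (−0.44), Hbb-bt (−1.47) and the erythroid median (−1.35) turned. The cause of the other changes was not tested. No paired analysis was possible because each age had 1 library. Precision is set by 1 library per age, and genes under 50 summed UMIs were not measured.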
